A study of Mus musculus with 4 samples.

Results

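Celecoxib, an oral inhibitor of the prostaglandin-producing enzyme COX-2, was given to mice carrying YUMM1.7-OVA RTT tumours, and the cells of those tumours (COX2i) were set against cells of tumours without the drug (CTRL). The members were all cells of the COX2i and CTRL libraries, 18086 of the 34447 cells in the series, with 9133 in COX2i and 8953 in CTRL. YUMM1.7 is a mouse melanoma line with mutant Braf and without Cdkn2a, and RTT names a subline that had become resistant to targeted therapy. In both groups the labels give the line as mCherry-bearing, for CTRL as its mCherry control, and it carried ovalbumin and grew in Rag2-/- mice, which have no T or B cells of their own but keep myeloid and NK cells. Both groups received ovalbumin-specific OT-1 CD8+ T cells by adoptive transfer on day 7 and were collected on day 10, 72 h later. CD45+ cells of 3 tumours were pooled into 1 library per group. Whether the CTRL mice received the vehicle of the drug is not given in the sources used here. The question put by the comparison was how COX-2 inhibition alters the immune cells of a tumour that resists transferred T cells.

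COX-1 and COX-2, encoded by Ptgs1 and Ptgs2, turn arachidonic acid into prostaglandin H2, from which prostaglandin E2 (PGE2) is made. PGE2 acts on myeloid cells mainly through the receptors EP2 and EP4, which raise cyclic AMP. Interferon-γ from T and NK cells acts through transcription factors such as Irf1 on guanylate-binding proteins, immunity-related GTPases, antigen presentation and the chemokines Cxcl9 and Cxcl10. Celecoxib acts on the enzyme, so the Ptgs2 transcript does not check the treatment.

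Counts of unique molecular identifiers (UMIs) were summed over the cells of each class that the authors had named and that held at least 50 cells in both libraries. There were 7 such classes with 17140 cells, and the other 946 cells are described only where stated. In CTRL and COX2i respectively, TAM_C1q held 3199 and 2023 cells, TAM_Spp1 2347 and 1412, TAM_cycling 1457 and 3164, Ctsk_Macro 380 and 157, Infl_Mono 93 and 130, cDC2 645 and 666, and Myofibrobl 554 and 913. TAM stands for tumour-associated macrophage, cDC2 for a type of conventional dendritic cell, and Myofibrobl for non-immune cells that passed the CD45 sort. All values are UMIs of a gene per 1000000 UMIs of the class (CPM), and a log2 ratio is COX2i over CTRL. Brackets give 95% intervals for counting error only. With 1 library per group there was no replicate, no test and no p-value, and the spread between tumours is unknown. A gene was tested when both sums together held at least 100 UMIs, and it was called higher or lower at a 2-fold difference.

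The labels were checked against markers that separate each class from all other cells of its library. All 8 TAM_C1q markers and all 5 cDC2 markers were higher in their class in both libraries, as were all 5 of the Infl_Mono markers in the table. In the Ctsk_Macro class 5 of 9 were higher. The macrophage genes Adgre1, C1qa, Mertk and Apoe were present but not higher than in other cells, so the class is called by its leading gene Ctsk. TAM_Spp1 held only 2 of 8 in CTRL, Spp1 among them, and 3 of 8 in COX2i. Adgre1, C1qa, Mertk, Apoe and Cd68 were present but not higher there in either library. Monocyte markers summed to 3265 CPM in TAM_Spp1 in CTRL, against 320 in TAM_C1q, so TAM_Spp1 is used only as the authors' name. In TAM_cycling 7 of 8 were higher in CTRL and 8 of 8 in COX2i. Of the Myofibrobl markers, 4 of the 5 in the table were higher in the class. COX2i was the deeper library, with 78722763 UMIs and a median of 7502 per cell against 67891118 and 6151 in CTRL, and the class sums ranged from 484222 UMIs (Infl_Mono, CTRL) to 35308302 (TAM_cycling, COX2i). No cell barcode was shared in full. The first 16 bases of 996 barcodes occurred in both libraries, which carried separate probe barcodes. Fewer cells of a kind within a class and less RNA per cell cannot be told apart in such sums.

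Few genes passed 2-fold in any class, and the balance of direction differed between classes. In TAM_C1q, 121 of 10125 tested genes (1.2%) were at least 2-fold higher and 222 (2.19%) at least 2-fold lower in COX2i. In TAM_Spp1, 73 of 8944 (0.816%) were higher and 121 (1.35%) lower. TAM_cycling had 109 of 10300 (1.06%) higher and 141 (1.37%) lower. More genes were higher than lower in 3 classes. They were Ctsk_Macro, with 156 of 7130 (2.19%) higher and 74 (1.04%) lower, cDC2, with 162 of 7477 (2.17%) higher and 32 (0.428%) lower, and the non-immune Myofibrobl class, with 263 of 9980 (2.64%) higher and 73 (0.731%) lower. The smallest class, Infl_Mono, had 44 of 2405 (1.83%) higher and 52 (2.16%) lower. The median log2 ratio over all genes tested in a class lay between -0.01 (cDC2) and 0.09 (Infl_Mono). After thinning to 2000 UMIs per cell fewer genes could be tested, and fewer were called. In TAM_C1q 131 of 8500 tested genes were lower. In Ctsk_Macro 37 of 2283 were higher and 26 lower, and in cDC2 70 of 4951 were higher and 19 lower. Without cells that held 3 or more UMIs of non-immune markers, 142 of 8688 tested genes were lower in TAM_C1q and 92 of 9211 in TAM_cycling. That filter left out 2024 of 3199 TAM_C1q cells in CTRL and 1288 of 2023 in COX2i. In TAM_cycling it left out 851 of 1457 and 2012 of 3164.

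**Figure D1:**
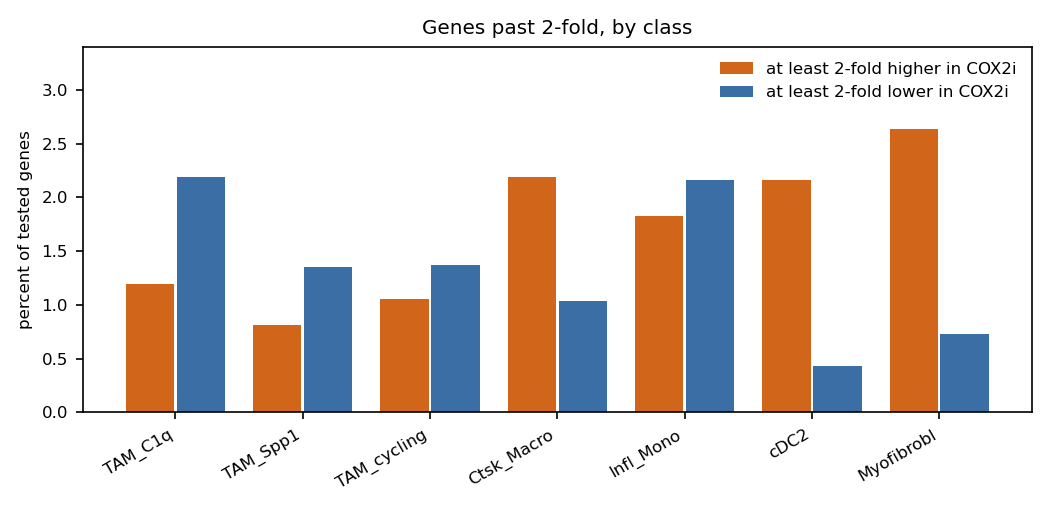
The bars give, for each of the 7 classes, the percentage of tested genes at least 2-fold higher (orange) or at least 2-fold lower (blue) in COX2i than in CTRL, 1 library per group. The lower genes outnumber the higher ones in TAM_C1q, TAM_Spp1, TAM_cycling and Infl_Mono, and the reverse is seen in Ctsk_Macro, cDC2 and Myofibrobl, with the tallest bar at 2.64%.

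Over the 6 immune classes together, 2285 genes were tested in every class, and their median log2 ratio over the classes was at least 1 for 18 (0.788%) and at most -1 for 11 (0.481%). The genes with the highest medians were Iigp1 (2.75), Cxcl10 (2.51), Gbp2 (1.98), Gbp4 (1.55), Fdps (1.49), Gbp5 (1.44), Gbp3 (1.40), Naaa (1.38), Ccl12 (1.26) and Ly6a (1.23). Of these, Iigp1, Cxcl10, Ly6a and the 4 guanylate-binding proteins are induced by interferons in many cells, Fdps makes farnesyl diphosphate in the cholesterol pathway, and Ccl12 is a monocyte chemokine. The lowest medians were those of S100a8 (-1.96), Apoe (-1.67), Clec4d (-1.38), Cd38 (-1.36), Trf (-1.34), Plin2 (-1.23), Pf4 (-1.18), Ctla2b (-1.08), Slc27a1 (-1.08) and Tmem86a (-1.07). Apoe carries lipid out of macrophages, Plin2 coats lipid droplets, Slc27a1 takes up fatty acids, and Cd38 breaks down NAD. At 2-fold or more in each of the 6 classes, 3 genes were higher (Gbp2, Gbp4 and Fdps) and 1 was lower (Apoe).

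**Figure D2:**
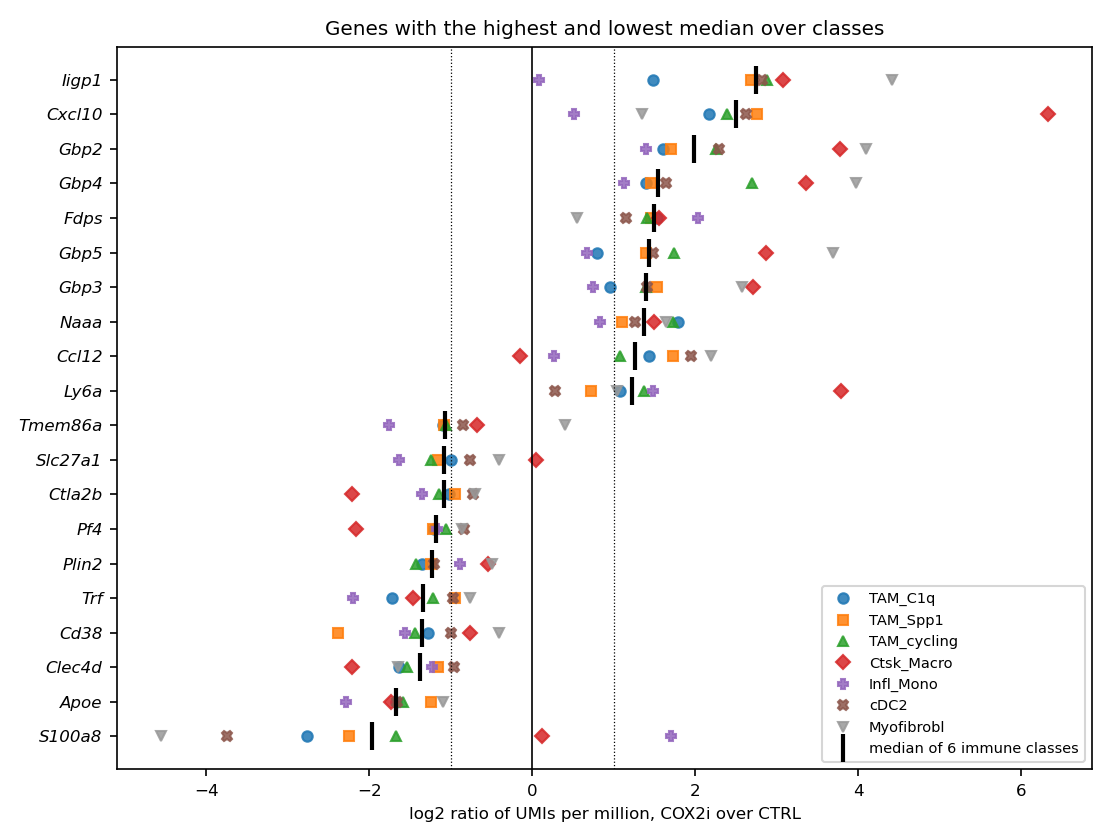
Each symbol is the log2 ratio of CPM, COX2i over CTRL, of 1 gene in 1 class, for the 10 genes with the highest and the 10 with the lowest median over the 6 immune classes (black bars), with dotted lines at 2-fold. Iigp1 stands at 0.09 in Infl_Mono and at 4.41 in Myofibrobl, S100a8 spans -4.55 to 1.71, and the Cxcl10 symbol of Ctsk_Macro at 6.33 is a lower bound, since CTRL held no UMI there.

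Because the highest genes included several interferon-induced ones, the letters around their start sites were read from RefSeq promoters (GRCm38.p6, 250 bases before to 50 after each start). The core of the interferon-stimulated response element, GAAA followed by any 2 bases and a second GAAA, was searched on both strands and occurred in 1131 of 32851 promoters (3.44%). Of the 10 genes with the highest medians 6 had a promoter in the table, and 4 of them held the motif. The sequences are shown because these 4 are interferon-induced genes among the 10, with the match in capitals and 10 bases on each side. They are written along the gene's own strand, on which the match may read as its reverse complement.
Gbp2, chr3:142620594-142620623, plus strand: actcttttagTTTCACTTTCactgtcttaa
Cxcl10, chr5:92349083-92349112, minus strand: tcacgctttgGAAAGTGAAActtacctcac
Gbp3, chr3:142559989-142560018, plus strand: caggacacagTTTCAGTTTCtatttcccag
Gbp5, chr3:142496759-142496788, plus strand: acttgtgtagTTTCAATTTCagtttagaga
The first base of the match lay at -59 of the RefSeq start in Gbp2, -213 in Cxcl10, -45 in Gbp3 and -165 in Gbp5. Gbp3 held a second, overlapping match at -39, whose bases are not all in capitals. Gene models differ at these starts, and the GENCODE models of Gbp2 and Gbp5 begin further upstream, so that the Gbp2 and Gbp5 matches lie inside them. TTCNNNGAA, the core of the interferon-γ-activated site, was in 8.30% of all promoters and in that of Gbp5 alone among the 6. Of the 10 genes with the lowest medians 9 were in the table and 1, Clec4d, held the response element. Neither TGACGTCA, the cyclic AMP response element (1.79% of promoters), nor TCACNCCAC, the sterol regulatory element (1.24%), was in these 6 and 9 genes. Fdps, the cholesterol gene among the 10 highest, had no promoter in the table, so its letters were not read. With so few genes and such rare motifs, their absence says little. A match is only a description of letters.

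Gbp2 (ENSMUSG00000028270, chr3:142620602-142638008 on the plus strand of GRCm38) encodes a guanylate-binding protein of cell-autonomous defence. In TAM_C1q it stood at 42.6 CPM in CTRL and 130 in COX2i, a log2 ratio of 1.60 (1.49 to 1.71). In TAM_Spp1 the levels were 67.5 and 221 (1.71), in TAM_cycling 44.8 and 214 (2.26), and in cDC2 91.6 and 448 (2.29). Infl_Mono had the highest level in both libraries, 966 and 2548 (1.40), and the smallest log2 ratio of the 7 classes. The steepest differences were those of Ctsk_Macro, 58.0 and 793 (3.77, 3.57 to 3.99), and Myofibrobl, 8.20 and 140 (4.10, 3.77 to 4.44). A Gbp2 UMI was found in 6.84% of Ctsk_Macro cells in CTRL and 47.1% in COX2i. After each cell was thinned to 2000 UMIs these shares were 3.22% and 32.7%. In Myofibrobl, the class with the lowest level in CTRL, the shares were 8.12% and 19.9%, at medians of 15008 and 11036 UMIs per cell.

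Cxcl10, which draws activated T cells through the receptor Cxcr3, differed in the same direction. It stood at 7.50 and 33.9 CPM in TAM_C1q (log2 ratio 2.17), at 15.3 and 103 in TAM_Spp1 (2.76), at 17.96 and 93.9 in TAM_cycling (2.39) and at 41.7 and 258 in cDC2 (2.63). In Infl_Mono, with 1026 and 1459 CPM, the log2 ratio was 0.51 (0.35 to 0.67) and under 2-fold. Ctsk_Macro held no Cxcl10 UMI in CTRL and 103 in COX2i, at least 80.4-fold higher against a floor of 3 UMIs. Those UMIs came from 8 of 157 cells. Cxcl9, a second ligand of Cxcr3, rose in TAM_C1q from 4.65 to 24.5 CPM (2.40), in TAM_cycling from 11.9 to 63.2 (2.40) and in cDC2 from 46.3 to 129 (1.48). Infl_Mono had 304 and 485 CPM (0.67).

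The interferon-γ list, compiled here and holding Irf1, guanylate-binding proteins and immunity-related GTPases, was higher on balance in all 7 classes. The type I interferon list had a positive median in all but Infl_Mono, with few genes called outside Ctsk_Macro and Myofibrobl. Of the tested interferon-γ genes, 6 of 19 were called higher in TAM_C1q (median log2 ratio 0.80, against 0.01 over all genes tested), 11 of 18 in TAM_Spp1 (1.13, against 0.02), 16 of 20 in TAM_cycling (1.40, against 0.01) and 14 of 18 in cDC2 (1.48, against -0.01). In Ctsk_Macro all 14 were called (2.49, against 0.06), in Myofibrobl 13 of 17 (2.23, against 0.03) and in Infl_Mono 5 of 16 (0.68, against 0.09). Among Infl_Mono cells with more than 2000 genes, 45 in CTRL and 49 in COX2i, that median was 0.096 with 12 genes tested. None was called lower in any class. Of the type I interferon genes, by contrast, 12 of 13 were called higher in Ctsk_Macro (1.88) and 13 of 17 in Myofibrobl (1.47). The call was reached by 1 of 21 in TAM_cycling (0.46), and by none of 20 in TAM_C1q (0.08), of 19 in TAM_Spp1 (0.26), of 18 in cDC2 (0.45) or of 20 in Infl_Mono (-0.02). Above 0 lay 20 of 21 in TAM_cycling, 14 of 18 in cDC2, 14 of 19 in TAM_Spp1 and 14 of 20 in TAM_C1q. The type I median changed sign in TAM_C1q without cells above the 95th percentile of UMIs (-0.012). In Infl_Mono it did so after thinning (0.14). Both lists hold genes that respond to either interferon. In Myofibrobl, markers of immune cells stood beside these values, with a median of 0.31 for macrophage markers (none of 9 called higher, 1 lower, summed levels of 2843 and 2310 CPM) and 0.48 for monocyte markers (2 of 5 higher, 1 lower, 394 and 565 CPM). Summed monocyte markers stood at 320 and 526 CPM in TAM_C1q, 380 and 581 in TAM_cycling and 1066 and 1219 in cDC2. They were lower in COX2i in TAM_Spp1 (3265 and 2296) and Ctsk_Macro (148 and 114). The monocyte classes together made up 1.55% of cells in CTRL and 6.11% in COX2i. The part of these cells and markers was not tested.

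Single genes of the type I list showed the same division between classes. Isg15, a ubiquitin-like modifier, rose in Ctsk_Macro from 20.5 to 195 CPM (log2 ratio 3.25) and in Myofibrobl by 2.05, whereas in Infl_Mono it stood at 2071 and 2535 CPM (0.29). Irf7, which amplifies type I interferon transcription, rose in Ctsk_Macro from 16.3 to 104 CPM (2.68) and in Myofibrobl by 1.23, and had log2 ratios of 0.03 in TAM_C1q, 0.26 in TAM_Spp1 and 0.03 in Infl_Mono. In Infl_Mono the antiviral genes Rsad2 (2705 and 1990 CPM) and Ifit3 (1534 and 949.7 CPM) stood lower in COX2i, under 2-fold (-0.44 and -0.69). Irf1, a transcription factor of the interferon-γ list, passed 2-fold in TAM_cycling (1.08), Ctsk_Macro (1.95) and cDC2 (1.34).

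The UMIs of the interferon-γ list were spread unevenly over the cells of a class. In Ctsk_Macro the 10% of cells with the most such UMIs held 57.0% of them in CTRL and 48.7% in COX2i. In Infl_Mono these shares were 38.6% and 25.4%, and in TAM_Spp1 45.1% and 42.8%. They were larger in COX2i in Myofibrobl (44.3% and 65.6%), TAM_cycling (44.1% and 55.0%) and TAM_C1q (39.4% and 47.8%), and close in cDC2 (39.0% and 38.1%).

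Ly6a, an interferon-induced surface protein by which the study sorts inflammatory monocytes, rose in Infl_Mono from 328 to 915 CPM (log2 ratio 1.48), in TAM_cycling from 95.5 to 247 (1.37), in TAM_C1q from 41.9 to 88.7 (1.08) and in Ctsk_Macro from 20.7 to 286 (3.79). It was under 2-fold in TAM_Spp1 (176 and 289, 0.72) and cDC2 (1069 and 1297, 0.28). Naaa, a lysosomal amidase that degrades lipid amides, rose in 6 of the 7 classes, from 46.7 to 161 CPM in TAM_C1q (1.78) and from 71.0 to 235 in TAM_cycling (1.73). Slamf8, a myeloid surface receptor, rose in cDC2 from 11.8 to 71.9 CPM (2.60) and in Ctsk_Macro from 1.57 to 50.4 (5.00). Guanylate-binding proteins, Ly6 genes and MHC genes belong to families with near-identical members, and probes that bind more than 1 member were not checked.

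Genes of MHC class II, which shows peptides to CD4+ T cells, had positive medians in 6 classes and were level in cDC2. H2-Ab1, a class II chain, rose in Infl_Mono from 242 to 987 CPM (log2 ratio 2.03, 1.74 to 2.33) and in TAM_C1q from 147 to 312 (1.09). TAM_Spp1 had 1954 and 3740 (0.94), TAM_cycling 590 and 887 (0.59) and Ctsk_Macro 289 and 498 (0.78). cDC2 carried the most in both libraries, 19129 and 17752 CPM (-0.11). The class II list had a median of 1.56 with 4 of 7 genes called in Infl_Mono, 0.85 with 5 of 10 in TAM_C1q, 0.90 with 4 of 9 in Ctsk_Macro, 0.83 with 1 of 12 in TAM_Spp1 and 0.57 with 1 of 12 in TAM_cycling. In cDC2 it was -0.00 with none of 12 called and 6 above 0. Myofibrobl, the class that should lack these genes, had a median of 0.57 with 9 of 9 above 0 and none called. Its H2-Ab1 level was 166 and 185 CPM (0.16), with a UMI in 21.3% and 25.3% of cells. Ciita, the transactivator of class II genes, rose in TAM_C1q from 3.28 to 10.9 CPM (1.73), in TAM_Spp1 from 36.0 to 92.7 (1.36) and in TAM_cycling from 11.5 to 30.4 (1.40), and stood at 565 and 690 in cDC2 (0.29).

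Genes of MHC class I presentation had positive medians in every class, between 0.35 (TAM_cycling) and 1.13 (Ctsk_Macro), but outside Ctsk_Macro (10 of 18) and Myofibrobl (7 of 17) only 1 gene passed 2-fold, in cDC2. Tap1, which moves peptides into the endoplasmic reticulum, had 63.0 and 104 CPM in TAM_C1q (0.73) and rose from 49.8 to 203 in Ctsk_Macro (2.02). Psmb10, an immunoproteasome subunit, had log2 ratios of 0.75 in TAM_C1q, 0.76 in TAM_cycling and 1.85 in Ctsk_Macro. Among genes for T cell stimulation, the checkpoint ligand Cd274 rose in Infl_Mono from 116 to 244 CPM (1.08) and in Ctsk_Macro from 8.39 to 53.5 (2.67), and Cd40 in cDC2 from 36.3 to 91.3 (1.33). The list of 19 such genes in the table had medians between -0.08 and 0.53, with 1 to 3 called higher in 6 classes and none in TAM_Spp1. In cDC2 1 was called lower, Tnfsf4, the ligand of the co-stimulatory receptor OX40, from 110 to 44.5 CPM (-1.31).

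Cholesterol synthesis had a positive median in every class, as did the MHC class I list. Its enzymes turn acetyl-CoA into sterols under the transcription factor SREBP2. Fdps (chr3:89093588-89101959, minus strand) stood at 39.7 CPM in CTRL and 115 in COX2i in TAM_C1q (log2 ratio 1.53, 1.41 to 1.64). The pairs were 57.8 and 158 in TAM_Spp1 (1.45), 51.3 and 137 in TAM_cycling (1.42), 52.7 and 155 in Ctsk_Macro (1.55) and 85.5 and 190 in cDC2 (1.15). Infl_Mono had 39.2 and 160 from only 19 and 98 UMIs (2.03, 1.31 to 2.82), and Myofibrobl 308 and 451, under 2-fold (0.55). The log2 ratios of the 5 macrophage and dendritic classes thus lay between 1.15 and 1.55.

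Other enzymes of the pathway also stood higher. Of the 21 cholesterol genes, 9 were called higher in TAM_C1q (median 0.81), 6 in TAM_Spp1 (0.61) and 6 in TAM_cycling (0.73), with all 21 tested in each. In cDC2 9 of 19 were called (0.93), in Ctsk_Macro 4 of 16 (0.80) and in Infl_Mono 3 of 5 (1.20). None was called in Myofibrobl, although all 21 lay above 0 (0.46). None was called lower anywhere. Sqle, the squalene epoxidase, rose from 17.7 to 47.6 CPM in TAM_C1q (1.43), from 33.3 to 88.6 in TAM_Spp1 (1.41) and from 50.3 to 112 in cDC2 (1.16).

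Apoe (chr7:19696109-19699188, minus strand), the lipid carrier, fell in all 7 classes. Its level was 41133 CPM in CTRL and 12859 in COX2i in TAM_C1q (log2 ratio -1.68), 10264 and 4338 in TAM_Spp1 (-1.24), 23765 and 7917 in TAM_cycling (-1.59) and 22820 and 6838 in Ctsk_Macro (-1.74). Infl_Mono had 35414 and 7280 (-2.28, -2.33 to -2.23), Myofibrobl 1663 and 776 (-1.10) and cDC2 686 and 217 (-1.66). The cDC2 level was 1.67% of the TAM_C1q level in CTRL and 1.68% in COX2i. The part of free RNA from macrophages in the cDC2 value was not tested.

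**Figure D3:**
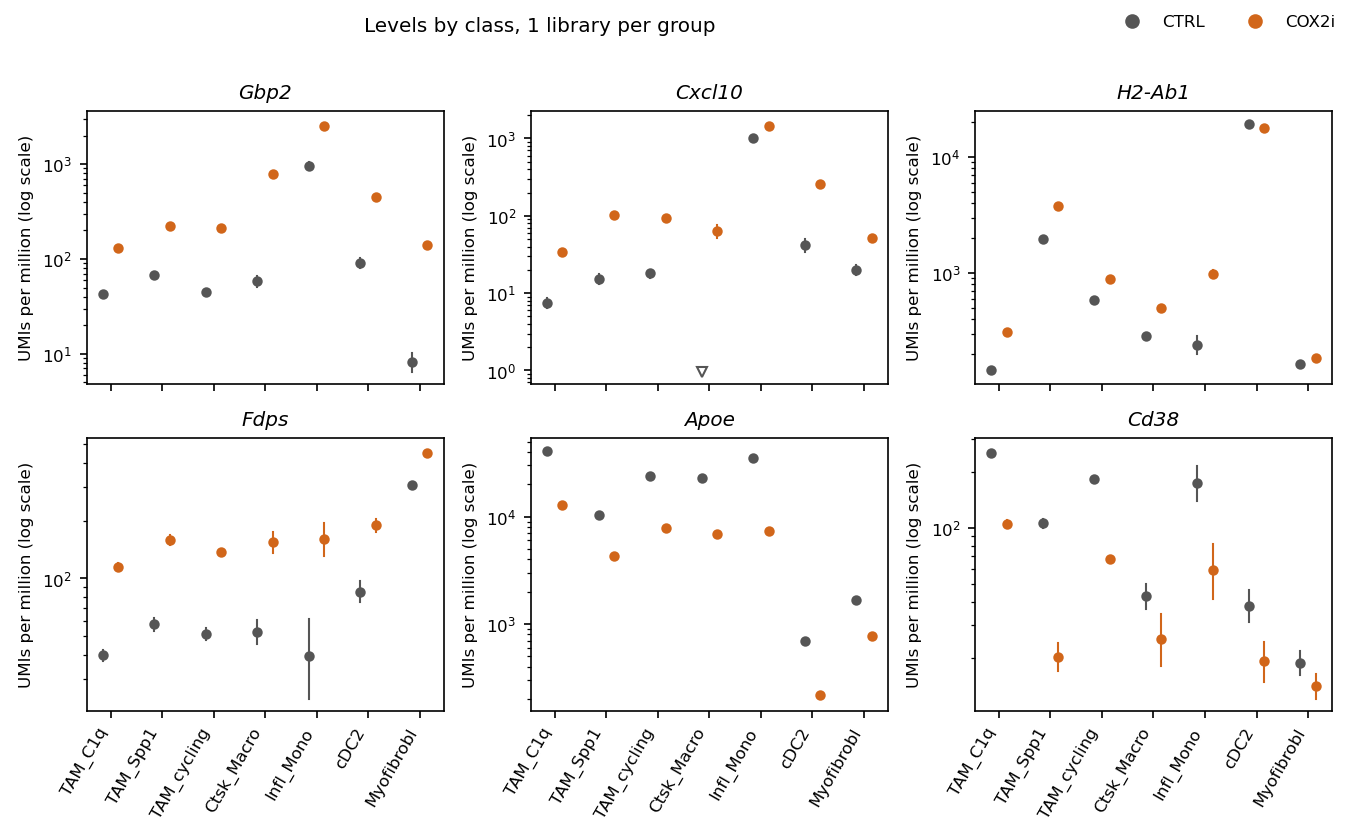
Points give the level of 6 genes in CPM on a log axis, by class, in CTRL (grey) and COX2i (orange), 1 library each, with exact 95% Poisson intervals for counting error and an open triangle for the upper limit where no UMI was found. Gbp2 and Fdps stand higher and Apoe lower in COX2i in every class, whereas H2-Ab1 is level in cDC2 at 19129 and 17752.

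Other genes of lipid handling did not all follow Apoe. Plin2 fell in TAM_C1q from 710 to 277 CPM (log2 ratio -1.36), in TAM_Spp1 from 645 to 273 (-1.24), in TAM_cycling from 514 to 191 (-1.43) and in cDC2 from 173 to 74.9 (-1.21). Fabp5, a fatty acid carrier, fell in TAM_C1q from 815 to 339 CPM (-1.26) and in Infl_Mono from 584 to 169 (-1.79). Lpl, the lipoprotein lipase, rose instead, from 6.57 to 41.9 CPM in TAM_C1q (2.67, 2.42 to 2.93), from 14.5 to 50.4 in TAM_cycling (1.80) and from 227 to 812 in Ctsk_Macro (1.84). The lipid efflux list as a whole had medians of -0.40 in TAM_C1q (1 higher and 4 lower of 20), -0.27 in TAM_Spp1 (2 and 4 of 19), -0.39 in TAM_cycling (1 and 5 of 19), -0.88 in Infl_Mono (0 and 5 of 13) and 0.24 in Myofibrobl (3 and 2 of 18; -0.13 after thinning). In cDC2 it was -0.15 (2 of 13 lower) and in Ctsk_Macro -0.29 (1 higher and 2 lower of 18).

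Cd38 and several surface or secreted proteins of macrophages were lower across the classes. Cd38 (chr5:43868553-43912375, plus strand) fell from 253 to 104 CPM in TAM_C1q (log2 ratio -1.27), from 105 to 20.2 in TAM_Spp1 (-2.38, -2.65 to -2.13) and from 184 to 67.7 in TAM_cycling (-1.44). It was under 2-fold in cDC2, at 38.1 and 19.1 CPM and a log2 ratio just short of the call, in Ctsk_Macro (-0.76) and in Myofibrobl (-0.41). Trf, the iron carrier transferrin, fell from 887 to 269 CPM in TAM_C1q (-1.72) and from 667 to 146 in Infl_Mono (-2.19). Clec4d, a C-type lectin for microbial glycolipids, fell from 335 to 108 CPM in TAM_C1q (-1.64) and from 103 to 22.1 in Ctsk_Macro (-2.22). The platelet chemokine Pf4 fell from 2310 to 1003 CPM in TAM_C1q (-1.20) and from 695 to 155 in Ctsk_Macro (-2.16).

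Scavenger and tissue-resident genes were lower in TAM_C1q and TAM_cycling. Vcam1, an adhesion molecule for leukocytes, fell from 130 to 8.47 CPM in TAM_C1q (log2 ratio -3.94, -4.20 to -3.69) and from 85.3 to 9.60 in TAM_cycling (-3.15), while in Myofibrobl it stood at 106 and 111 (0.06). A Vcam1 UMI was present in 18.3% of TAM_C1q cells in CTRL and 3.41% in COX2i (11.7% and 1.51% after thinning), against 1.24% and 1.05% in cDC2. Cd163, which takes up haemoglobin complexes, fell from 121 to 24.6 CPM in TAM_C1q (-2.30) and from 46.4 to 12.1 in TAM_cycling (-1.94). Lyve1, a hyaluronan receptor of resident macrophages, fell from 104 to 41.2 CPM in TAM_C1q (-1.33) and from 109 to 31.7 in TAM_cycling (-1.79). In Ctsk_Macro Lyve1 had 422 UMIs in CTRL and 1 in COX2i, a log2 ratio of -7.49 with an interval of -12.80 to -5.01, and it was found in 12.6% and 0.637% of cells. The iron exporter Slc40a1 fell from 15.5 to 4.02 CPM in TAM_C1q (-1.95).

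The whole resident and scavenger list moved less than these members. Its median was -0.32 in TAM_C1q with 3 of 22 called lower, -0.42 in TAM_cycling with 4 of 22, -0.17 in TAM_Spp1 with 3 of 18, -0.75 in Ctsk_Macro with 2 of 17 and 1 higher, and -0.95 in Infl_Mono with 7 of 16. It was 0.27 in both cDC2 and Myofibrobl, with 1 called higher in cDC2. Mertk, a receptor for dying cells, fell in TAM_Spp1 from 158 to 67.6 CPM (-1.23) and in Infl_Mono from 176 to 73.7 (-1.25), and stood at 244 and 135 in TAM_C1q (-0.85). The cysteine protease inhibitor Ctla2a fell from 297 to 64.0 CPM in TAM_C1q (-2.22) and from 246 to 45.6 in TAM_cycling (-2.43).

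Bone-resorbing enzymes were lower outside Ctsk_Macro, the class that makes them. Ctsk, the collagen-cutting cathepsin K, fell from 79.3 to 21.2 CPM in TAM_C1q (log2 ratio -1.90) and from 55.3 to 14.7 in TAM_cycling (-1.91), and stood at 27454 and 22053 in Ctsk_Macro (-0.32). Mmp9, a gelatinase, fell from 53.0 to 14.5 CPM in TAM_C1q (-1.87) and from 49.2 to 13.4 in cDC2 (-1.87), against 26966 and 18184 in Ctsk_Macro (-0.57). Acp5, an acid phosphatase, fell from 178 to 50.3 CPM in TAM_C1q (-1.82) and from 141 to 55.8 in cDC2 (-1.34), against 19738 and 13739 in Ctsk_Macro (-0.52). The TAM_C1q levels were small parts of those in Ctsk_Macro, 0.289% in CTRL and 0.0962% in COX2i for Ctsk, 0.197% and 0.0797% for Mmp9, and 0.901% and 0.366% for Acp5. The share of library UMIs in Ctsk_Macro cells itself went from 5.62% to 2.07%. Its part in these values, as free RNA, was not tested. The osteoclast list had medians between -0.57 (TAM_Spp1) and -0.09 (Ctsk_Macro), with 1 to 4 called lower in 6 classes, none in Infl_Mono and none called higher.

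In TAM_Spp1 a group of inflammatory genes was lower in COX2i. The neutrophil-recruiting chemokines Cxcl2, Cxcl1 and Cxcl3 fell from 1410 to 504 CPM (log2 ratio -1.48, -1.54 to -1.43), from 71.0 to 17.7 (-2.00) and from 93.1 to 22.98 (-2.02). Tnf fell from 67.3 to 22.8 CPM (-1.56) and Nfkbia, the NF-κB inhibitor that NF-κB itself induces, from 925 to 343 (-1.43). Il1b stood at 2600 and 2520 CPM (-0.04). The acute-phase gene Saa3 fell from 64.1 to 7.61 CPM (-3.08), the formyl peptide receptor Fpr1 from 51.4 to 6.73 (-2.93), the collagenase Mmp8 from 64.2 to 11.7 (-2.46), and Ppbp, a platelet chemokine, from 98.8 to 8.49 (-3.54). Saa3 also fell in Infl_Mono, from 279 to 34.4 CPM (-3.02), and Ppbp in TAM_C1q, from 70.4 to 8.91 (-2.98). The acute inflammation list had 8 of 18 genes called lower in TAM_Spp1 with a median of -0.54, 5 lower and 1 higher of 18 in TAM_C1q (-0.09), 3 lower and 1 higher of 17 in TAM_cycling (-0.25) and 2 lower and 1 higher of 15 in cDC2 (-0.49). The other medians were 0.38 in Ctsk_Macro (-0.87 without cells holding 3 or more non-immune marker UMIs), 0.14 in Infl_Mono and -0.12 in Myofibrobl.

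Markers of neutrophils moved with these genes. Of the neutrophil markers, 4 of 4 tested were called lower in TAM_C1q, 3 of 5 in TAM_Spp1, 3 of 4 in TAM_cycling, 2 of 2 in cDC2 and 3 of 3 in Myofibrobl, with summed levels of 151 and 40.4, 268 and 96.5, 90.7 and 32.8, 165 and 27.7, and 223 and 12.3 CPM in CTRL and COX2i. In Infl_Mono and Ctsk_Macro the sums were 444 and 449, and 132 and 207. S100a8, an alarmin of neutrophils and monocytes, fell from 94.6 to 19.9 CPM in TAM_Spp1 (-2.25) and rose in Infl_Mono from 51.6 to 169 (1.71), where 14 of 93 cells in CTRL and 21 of 130 in COX2i held a UMI of it (15.1% and 16.2%). The neutrophil class held 65 cells in CTRL and 5 in COX2i, 0.455% and 0.0409% of library UMIs. Its part in the lower values of S100a8, S100a9, Saa3, Ppbp, Mmp8 and Fpr1 was not tested. Monocyte markers were also lower on balance in TAM_Spp1, with a median of -0.64, 2 of 6 called lower and summed levels of 3265 and 2296 CPM, and their part in the values of this class was not tested.

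TAM_Spp1 also differed in genes of alternative activation, in both directions. Mgl2, a galactose-binding lectin, rose from 46.1 to 218 CPM (log2 ratio 2.24), and the chemokine Ccl17 from 2.42 to 43.8 (4.18, 3.59 to 4.83). Chil3, a chitinase-like protein, fell from 1449 to 557 CPM (-1.38) and the eosinophil chemokine Ccl24 from 51.6 to 8.64 (-2.58). F13a1, a clotting factor subunit, fell from 1832 to 826 CPM (-1.15). The list had a median of 0.25 in this class, with 3 of 14 higher and 4 lower, but -0.18 after thinning, and medians of 0.05 to 0.36 in the other 6 classes. Those of Ctsk_Macro, Infl_Mono and Myofibrobl also turned negative under at least 1 alternative, the furthest being Infl_Mono at -0.17 without cells holding 3 or more non-immune marker UMIs. Vegfa, the vascular growth factor, stood at 826 and 507 CPM (-0.70), and Thbs1, the matrix protein thrombospondin, at 12065 and 6441 (-0.91), both under 2-fold. Cfb, complement factor B, rose from 18.6 to 64.4 CPM (1.79).

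Of the transcripts of the prostaglandin pathway itself, Ptgs2 passed 2-fold in no class. Ptgs2, the target of celecoxib, stood at 95.6 and 94.5 CPM in TAM_C1q (log2 ratio -0.02, -0.11 to 0.08), at 473 and 392 in cDC2 (-0.27), at 104 and 84.2 in TAM_cycling (-0.30) and at 145 and 192 in Infl_Mono (0.41, -0.03 to 0.85). The levels were higher in TAM_Spp1, with 857 and 457 (-0.91, -0.97 to -0.85), and in Myofibrobl, with 861 and 457 (-0.92), and both stood lower in COX2i. Ptgs1 fell in Myofibrobl from 167 to 64.8 CPM (-1.37, -1.49 to -1.24), and had 76.3 and 56.4 in TAM_C1q (-0.44) and 42.1 and 21.8 in TAM_Spp1 (-0.95). Ptges, the inducible PGE2 synthase, stood at 310 and 172 CPM in Myofibrobl (-0.85) and at 13.6 and 6.90 in TAM_C1q (-0.98). The Myofibrobl levels of Ptgs1 and Ptges were the highest of the 7 classes in both libraries.

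Enzymes of neighbouring lipid mediators were called in a few classes. Pla2g7, which degrades platelet-activating factor, fell from 744 to 274 CPM in TAM_C1q (log2 ratio -1.44, -1.49 to -1.39) and from 397 to 179 in TAM_cycling (-1.15), with 734 and 834 in Myofibrobl. Hpgds, the prostaglandin D2 synthase, fell in Infl_Mono from 213 to 50.8 CPM (-2.07) and stood at 278 and 190 in TAM_C1q (-0.55). Ltc4s, the leukotriene C4 synthase, fell in cDC2 from 53.1 to 18.5 CPM (-1.52). The synthesis list of 14 genes had medians between -0.18 (Myofibrobl) and 0.05 (TAM_cycling), with 1 lower in 5 classes and none higher in any.

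None of the receptor and breakdown genes was called. Only 3 or 6 of them were tested in a class, and none in Ctsk_Macro or Infl_Mono. Over all genes tested in TAM_C1q, 1.2% were called higher and 2.19% lower, so an absence of calls among so few says little. Ptger4, which encodes EP4, was most abundant in cDC2, at 143 and 130 CPM (-0.13), and stood at 28.4 and 35.8 in TAM_C1q (0.33) and 35.8 and 42.7 in TAM_Spp1 (0.26). Ptger2, which encodes EP2, had 62.9 and 49.2 CPM in TAM_Spp1 (-0.35), 38.6 and 31.4 in TAM_C1q (-0.30) and 35.9 and 35.6 in TAM_cycling (-0.01). List medians were 0.08, 0.27 and 0.16 in TAM_C1q, TAM_Spp1 and TAM_cycling with 6 genes tested in each, and -0.34 in cDC2 and -0.08 in Myofibrobl with 3.

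**Figure D4:**
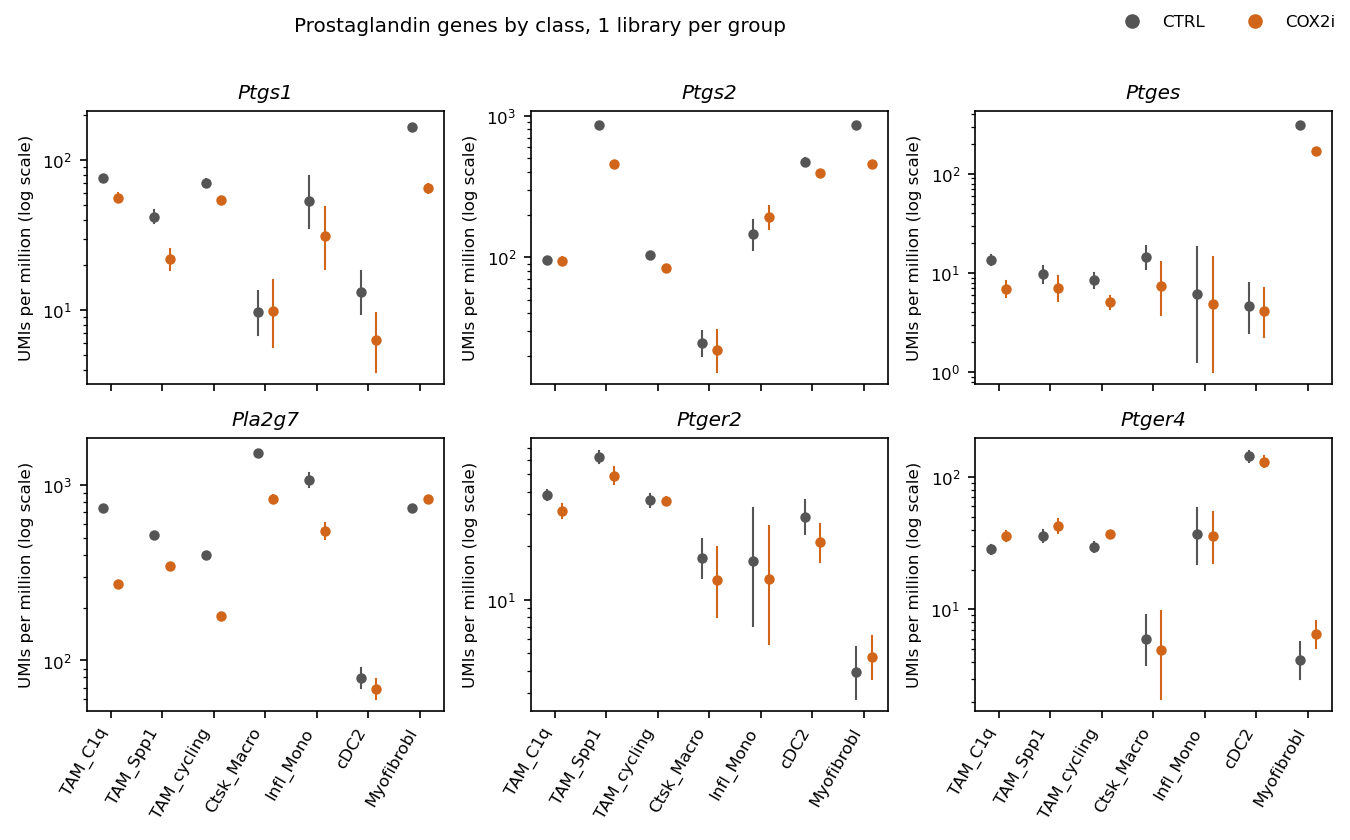
Points give the level of 6 prostaglandin genes in CPM on a log axis, by class, in CTRL (grey) and COX2i (orange), 1 library each, with exact 95% Poisson intervals for counting error. The pairs of Ptgs2 lie close together except in TAM_Spp1 (857 and 457) and Myofibrobl (861 and 457), and those of Ptger2 and Ptger4 lie close together in all classes.

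Targets of cyclic AMP, the messenger raised by EP2 and EP4, were on balance lower in TAM_Spp1 and cDC2 without passing 2-fold. In TAM_Spp1 the list had a median of -0.38 against 0.02 over all genes, with 1 of 19 above 0 and none called. In cDC2 the median was -0.33 against -0.01, with 2 of 16 above 0 and none called. Nr4a2 and Nr4a3, orphan nuclear receptors induced by cyclic AMP, stood at 401 and 223 CPM (-0.85) and at 213 and 110 (-0.96) in TAM_Spp1. Fosb, an immediate-early factor, had 933 and 535 CPM there (-0.80) and 1181 and 751 in cDC2 (-0.65). Per1, a clock gene with cyclic AMP elements, had 211 and 162 CPM in TAM_Spp1 (-0.38). The immediate-early list, whose genes also respond to cell handling and which shares 2 genes with this list, was lower on balance in the same classes, with a median of -0.36 in TAM_Spp1 (3 of 17 above 0, 1 called lower) and -0.27 in cDC2 (2 of 17 above 0, none called). Its part in the cyclic AMP values was not tested. The cyclic AMP list medians in the other classes were 0.11 in TAM_C1q, -0.04 in TAM_cycling, 0.25 in Ctsk_Macro, 0.15 in Infl_Mono (-0.26 without cells holding 3 or more non-immune marker UMIs and -0.055 after thinning) and 0.04 in Myofibrobl.

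Dendritic cells of cDC2 had 3 maturation genes and many cell-cycle genes higher in COX2i. Ccl17, which draws Ccr4-bearing T cells, rose from 62.1 to 421 CPM (log2 ratio 2.76, 2.53 to 3.00), Ccl22, its partner ligand, from 3.23 to 31.3 (3.28), and Ccr7, the receptor for migration to lymph nodes, from 28.0 to 135 (2.27). These were the only 3 of the 10 tested maturation genes to pass 2-fold, and the list median was 0.19. Of the mitosis genes 13 of 22 rose (median 1.09), and of the DNA replication genes 9 of 23 (0.76). Top2a, the mitotic topoisomerase, rose from 132 to 299 CPM (1.17, 1.00 to 1.35), and Mki67, a marker of cycling cells, stood at 122 and 243, just short of the call (1.00). TAM_cycling cells held 15752750 UMIs in CTRL and 35308302 in COX2i. Their part in the cell-cycle values of other classes, as free RNA, was not tested. In cDC2 non-immune markers had a median of 0.50 and monocyte markers one of 0.41 (2 of 4 called higher), whose part was not tested either. Cd101, an inhibitory surface protein, fell from 136 to 38.2 CPM (-1.83), and Rgs1, a regulator of chemokine signalling, had 1748 and 939 (-0.90).

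The mitosis and DNA replication lists lay above 0 in 3 of the other classes and near or below it in TAM_cycling and Myofibrobl. Within TAM_cycling, the class named for such genes, which made up 16.3% of cells in CTRL and 34.6% in COX2i, the medians were 0.02 for both mitosis and DNA replication, with none called. In Ctsk_Macro 6 of 10 mitosis genes rose (1.11) and 4 of 19 DNA replication genes (0.55). In TAM_Spp1 all 12 tested mitosis genes lay above 0 without a call (0.76), and 1 of 20 replication genes was called (0.50). In TAM_C1q 1 of 22 and 1 of 25 were called (0.36 and 0.40). In Myofibrobl 1 of 23 mitosis genes lay above 0 (-0.22), and the replication median was 0.03. In Infl_Mono no mitosis gene and 1 replication gene could be tested.

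Transcripts of the glycolysis and hypoxia list lay above 0 on balance in every class, with few called. The list had medians between 0.41 (Infl_Mono and cDC2) and 0.67 (TAM_C1q), with 6 of 26 called higher in TAM_C1q, 5 of 25 in TAM_cycling, 7 of 26 in Myofibrobl, 3 of 22 in Ctsk_Macro, 1 of 21 in Infl_Mono, 1 of 25 in cDC2 and none of 25 in TAM_Spp1. Slc2a1, the glucose transporter GLUT1, rose from 121 to 308 CPM in TAM_C1q (log2 ratio 1.34) and from 95.7 to 214 in TAM_cycling (1.16), and stood at 300 and 331 in cDC2 (0.14). The lactate exporter Slc16a3 rose in TAM_C1q from 124 to 321 CPM (1.37) and the glycolytic enzyme Pfkp from 76.4 to 189 (1.31). Respiratory chain genes had medians of -0.09 to 0.25 with none of up to 38 called. Asns, the asparagine synthetase of the amino acid response, rose in TAM_C1q from 20.0 to 67.8 CPM (1.76). The heat shock and unfolded protein list had medians of 0.17 to 0.66, with 4 of 18 called in TAM_C1q, and its small chaperone Hspb1 rose there from 6.95 to 23.5 CPM (1.76).

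Infl_Mono, the inflammatory monocytes, differed in genes outside the interferon lists. Tmsb10, an actin-binding peptide, rose from 351 to 1256 CPM (log2 ratio 1.84, 1.60 to 2.09), and the myeloid gene Slfn4 from 213 to 660 (1.63). Hmox1, the haem-degrading enzyme, fell from 1218 to 326 CPM (-1.90, -2.14 to -1.67) and the chemokine Ccl5 from 302 to 88.4 (-1.77). In TAM_C1q Hmox1 stood at 767 and 919 (0.26). Macrophage markers had a median of -0.61 in Infl_Mono, with Apoe and Mertk called lower, and monocyte markers one of 0.55 with 1 of 6 called higher. The monocyte marker Plac8 rose from 1931 to 4442 CPM (1.20). The authors named the class from clusters of the same cells, so which cells it holds may differ between the libraries.

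Myofibrobl, the non-immune cells, is not a sample of the tumour stroma, since a CD45 sort removes most such cells. Adm, a vasodilator peptide induced by low oxygen, rose from 12.8 to 92.5 CPM (log2 ratio 2.86, 2.59 to 3.14), Apod, a lipid carrier, from 7.47 to 59.2 (2.99), the repressor Tbx2 from 7.78 to 55.3 (2.83) and Plppr3 from 10.8 to 59.8 (2.47). The integrin Itga10 fell from 66.9 to 14.3 CPM (-2.23), the glutathione transferase Mgst3 from 269 to 70.7 (-1.93) and the sugar-phosphate transporter Slc37a2 from 60.8 to 17.6 (-1.79). The 14 non-immune markers in the table had a median of 0.69 here with 3 of 12 called higher, and summed levels of 15211 and 25369 CPM. Col1a2, a collagen chain, rose from 4772 to 9669 CPM (1.02), and the endothelial genes Pecam1 and Cdh5 from 5.29 to 28.5 (2.43) and from 7.06 to 34.5 (2.29). The part that the mixture of cells in the class plays in its other values was not tested. The summed non-immune markers stood at 577 and 591 CPM in TAM_C1q, 353 and 402 in TAM_Spp1 and 370 and 427 in TAM_cycling. In cDC2 they stood at 151 and 222 CPM, with a median log2 ratio of 0.50 and 1 of 6 called higher, and 20 of 645 cells in CTRL and 63 of 666 in COX2i held 3 or more such UMIs. Without those cells cDC2 had 131 of 7236 tested genes called higher and 39 lower.

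2 lists came from the study. One names genes higher in immune cells of tumours whose cancer cells lacked Ptgs1 and Ptgs2, and was chosen on libraries other than these. The table held 65 of its genes. In COX2i 35 of 50 tested were called higher in Ctsk_Macro (median 1.46), 29 of 57 in Myofibrobl (1.00), 20 of 59 in cDC2 (0.77), 23 of 63 in TAM_cycling (0.69), 15 of 63 in TAM_Spp1 (0.72), 15 of 64 in TAM_C1q (0.52) and 13 of 57 in Infl_Mono (0.59). At most 1 was called lower in any class. Over the 6 immune classes 43 of 46 had a median above 0, against 63.5% of all genes. The other was a published interferon-stimulated signature of dendritic cells with 119 genes in the table, of which 42 of 85 were called higher in Ctsk_Macro, 37 of 100 in Myofibrobl, 15 of 116 in TAM_cycling, 11 of 106 in cDC2, 9 of 109 in TAM_Spp1 and 7 of 110 in TAM_C1q. In Infl_Mono 5 of 105 were called higher and 2 lower, and the median of 0.08 lay below the 0.09 of all genes tested there. Both lists contain Cxcl10, Gbp4 and Iigp1.

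**Figure D5:**
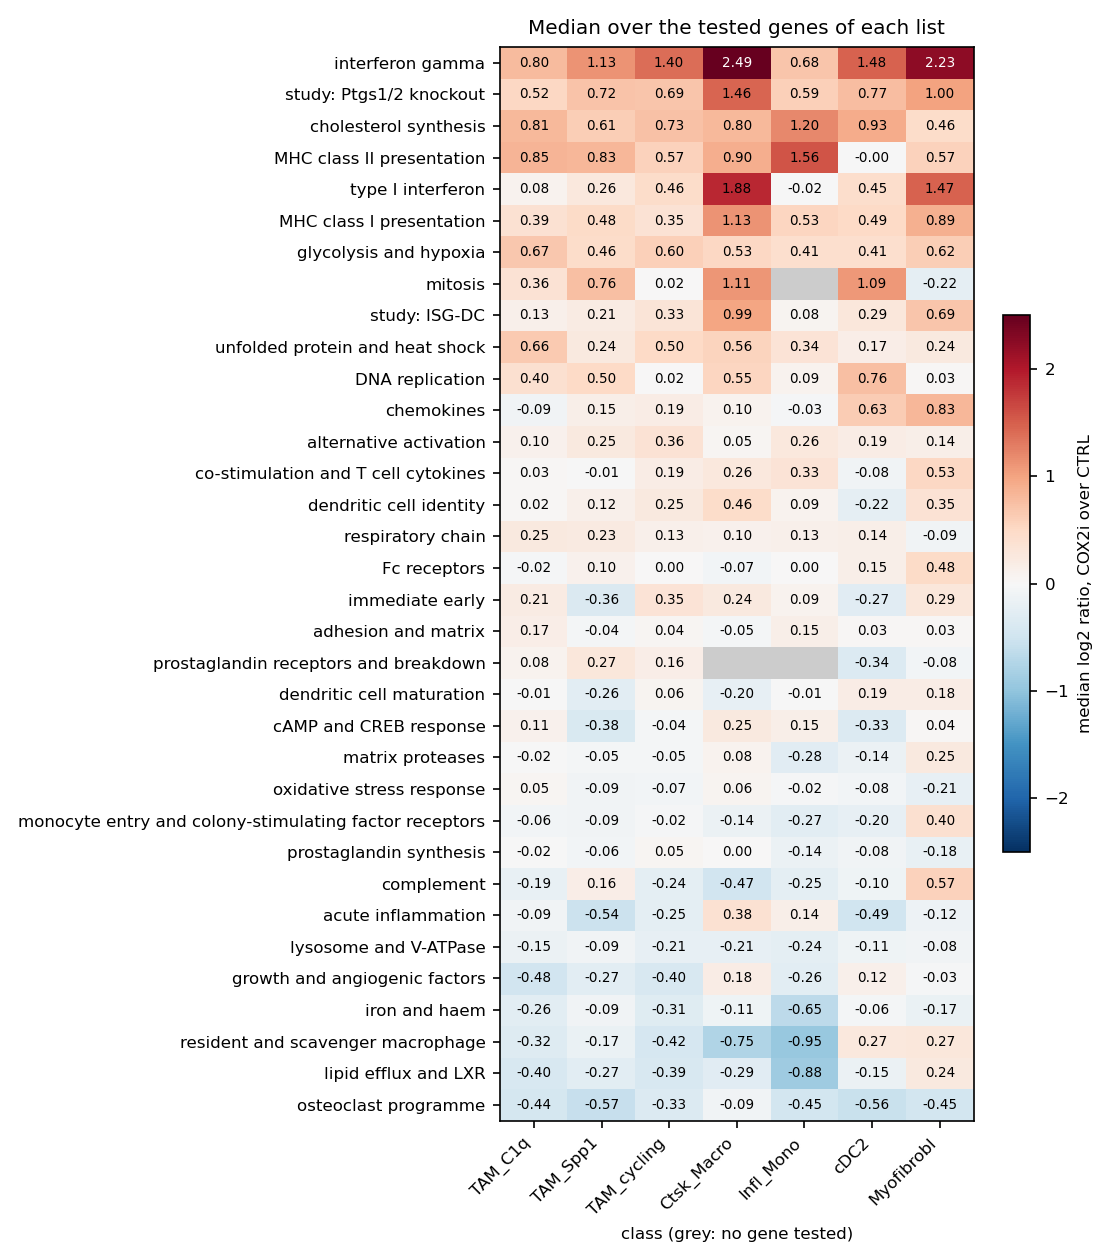
Each cell gives the median log2 ratio, COX2i over CTRL, of the tested genes of 1 list in 1 class, printed in the cell and coloured from blue (lower in COX2i) to red (higher). The interferon gamma row runs from 0.68 to 2.49 and the cholesterol row from 0.46 to 1.20, while the respiratory chain row stays between -0.09 and 0.25.

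The remaining lists are given by their range over the classes. Lysosome genes had medians of -0.24 to -0.08 with at most 2 called lower in a class (2 of 27 in Infl_Mono). Those of immediate-early genes ran from -0.36 to 0.35, of oxidative stress genes from -0.21 to 0.06 and of Fc receptors from -0.07 to 0.48. Both ends of the Fc receptor range changed sign after thinning, to 0.16 in Ctsk_Macro and -0.016 in Myofibrobl. Medians ran from -0.47 to 0.57 for complement, -0.05 to 0.17 for adhesion, -0.28 to 0.25 for matrix proteases, -0.48 to 0.18 for growth factors, -0.22 to 0.46 for dendritic cell identity and -0.27 to 0.40 for monocyte entry. The lowest dendritic cell identity median, that of cDC2, was 0.007 with a minimum of 20 UMIs. Some other medians of these lists also changed sign under an alternative. Chemokines had medians of -0.09 to 0.83, with up to 6 called higher and 7 lower in a class. Iron and haem genes had medians of -0.65 to -0.06, with 4 of 15 called lower in both TAM_C1q and TAM_cycling. Markers of NK and T cells had 1 tested gene each in TAM_Spp1, TAM_cycling and cDC2, at 0.23, -0.41 and 0.02. Mast cell markers had 1 in TAM_C1q (-1.97) and 1 in cDC2 (0.41), and B cell markers 1 in each TAM class, between -0.69 and -0.38. Dendritic markers had medians of 0.04 to 0.76.

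A second celecoxib library, in which mice also received the DNA methyltransferase inhibitor 5-azacitidine, shares the CTRL library and is set beside the others without a comparison. In it Gbp2 stood at 460 CPM in TAM_C1q, 861 in TAM_cycling and 1408 in cDC2, Fdps at 117, 160 and 304, and Apoe at 14694, 7503 and 210. Cd38 stood at 190 CPM in TAM_C1q and 126 in TAM_cycling, Plin2 at 574 and 349, and Vcam1 at 123 and 99.6. Ptgs2 stood at 1108 CPM in TAM_Spp1 and 678 in Infl_Mono.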

How the data were processed

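Single CD45+ cells were assayed by probe-based Chromium Flex, and the authors processed reads with Cell Ranger 7.1.0 against mm10. The deposited table gives each cell's UMI count for 12584 genes, not normalised, after the authors' filters on genes and cells. Cell classes were the authors' own names.

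Counts were summed per library and class and scaled to 1000000 UMIs of the class. Shares of cells carry exact Clopper-Pearson and sums exact Poisson 95% intervals, and ratios exact conditional intervals. A sum of 0 was set to 3 UMIs per class and library. Such intervals cover counting error only. Depth per library was 67891118 UMIs (CTRL) and 78722763 (COX2i), so 3 UMIs of a whole library equal 0.0442 and 0.0381 CPM. Doublets were not called; leaving out cells above the 95th percentile of UMIs in their class stands in for this. The script was tested on simulated data for 3 classes. It called 99.5% of changed genes with Infl_Mono (2439 genes) and 100% with cDC2 (7506 genes) and TAM_cycling (10301 genes), and none of the unchanged ones. The planted changes were all larger than the 2-fold call, and the simulated counts held counting error only. This checks the script and gives no rate of false calls for the data, where cells and tumours also vary. Software was Python 3.11.15, numpy 2.4.6, scipy 1.17.1 and pandas 2.3.3. Gene positions were taken from GENCODE on GRCm38, the build that mm10 names.

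The comparison, the 34 gene lists and 8 marker lists were chosen with earlier results of these data known. Genes were named by a rule. It took, per class, the 5 largest rises and 5 largest falls among genes with 200 or more UMIs and 50 or more CPM in the higher library. It added the 10 highest and 10 lowest medians over the 6 immune classes, up to 4 genes of each list with the largest absolute median, all prostaglandin genes and 22 genes of the study. Some genes that the rule names are not reported here. Outside the rule, Adgre1, Ccl22, Cd40, Cdh5, Ciita, Col1a2, Cxcl1, Cxcl3, Hspb1, Ifit3, Il1b, Irf1, Mertk, Mmp9, Nr4a2, Nr4a3, Pecam1, Plac8, Rgs1, Rsad2, Slc40a1, Sqle, Tnf, Tnfsf4 and Top2a were chosen after their values were seen. Alternatives were size factors, a thinned depth, other minimum counts and folds, stricter cell filters and macrophage classes alone. Cells of the IRF3/7 library were not analysed here.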

Additional observations from a re-analysis of the deposited data

Results flagged for a closer look

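Among genes named for a class, over the classes or by the study, 3 passed 2-fold in opposite directions in different classes, and the difference between the classes was not tested. The log2 ratio (COX2i over CTRL) of Ccl5, a chemokine for T cells and monocytes, was 3.55 in Myofibrobl, from 0.934 to 10.9 CPM, and -1.77 in Infl_Mono, from 302 to 88.4 CPM. S100a8 had 1.71 in Infl_Mono and -4.55 in Myofibrobl, where it stood at 78.2 and 3.33 CPM. S100a9, its partner subunit, had 1.703 in Ctsk_Macro, from 34.4 to 112 CPM, and -5.34 in Myofibrobl, from 111 to 2.74 CPM. Without the cells that held 3 or more UMIs of non-immune markers, the S100a9 value of Ctsk_Macro was -3.68.

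Classes with under 50 cells in a library took no part in the comparison, and some differed by 2-fold in the leading genes, mostly upward. Gbp2 had log2 ratios of 2.63 in Macro (389 and 2414 CPM), 3.24 in cDC1 (2 and 115 UMIs, interval 1.35 to 6.30), 2.59 in Mast (4 and 8 UMIs, 0.69 to 4.77) and 4.24 in NK_cells (1 and 149 UMIs, 1.74 to 9.56). Cxcl10 had 2.49 in Macro (50 and 116 UMIs), but fell in DC3 from 569 to 109 CPM (25 and 12 UMIs, -2.39, interval -3.52 to -1.34) and stood at 836 and 439.6 CPM in Monocyte_1 (-0.93). Fdps had 1.56 in Macro, 1.08 in Monocyte_1 (18 and 311 UMIs), 1.85 in TAM_H2Ab1 (4 and 33 UMIs), 1.16 in cDC1 (20 and 272 UMIs) and 3.13 in DC3 (1 and 22 UMIs, interval 0.50 to 8.50). H2-Ab1 had 2.07 in Mast (35 and 49 UMIs) and 1.26 in NK_cells (9 and 170 UMIs, 0.31 to 2.42). These sums come from as few as 10 cells in a library.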

How the results depend on the processing

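Named genes were called 2-fold in 316 gene and class pairs. All 316 kept their direction with size factors (313 still 2-fold), cells above 2000 genes (302), without cells above the 95th percentile of UMIs (304) and thinned to 2000 UMIs (293). Without cells holding 3 or more non-immune marker UMIs, 275 of 277 kept it and 258 were still 2-fold. The 2 that turned were Ccl5 in TAM_cycling (-0.95, from 1.40) and S100a9 in Ctsk_Macro (-3.68, from 1.703). The cause was not tested.

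Counts of calls depended on the minimum count, the fold and the depth, by construction. In the order Ctsk_Macro, Infl_Mono, Myofibrobl, TAM_C1q, TAM_Spp1, TAM_cycling and cDC2, a minimum of 1 UMI gave 1250, 918, 831, 422, 588, 275 and 777 higher and 445, 1327, 403, 714, 545, 735 and 663 lower. A call at 1.5-fold gave 496, 225, 759, 458, 315, 335 and 411 higher and 285, 173, 261, 682, 403, 472 and 284 lower. A minimum of 20 UMIs gave 387, 253, 503, 165 (TAM_Spp1), 184 and 343 higher, with TAM_C1q within 1.5 times, and 240, 270, 131, 435, 338, 313 and 139 lower. Thinned cells gave 37 higher and 26 lower of 2283 in Ctsk_Macro and 27 and 17 of 789 in Infl_Mono. In Myofibrobl they gave 85 and 41 of 6350, and in TAM_C1q 131 lower of 8500. TAM_cycling had 61 and 66 of 8553, cDC2 70 and 19 of 4951, and the median over classes 5 and 3 of 604. Macrophage classes alone gave 40 and 33 of 6979 in that median. Without cells holding non-immune marker UMIs, 34 of 1361 tested genes were lower in Infl_Mono, 142 of 8688 in TAM_C1q and 92 of 9211 in TAM_cycling. No count moved by over 1.5 times with size factors, cells above 2000 genes or without the 95th percentile. With a minimum of 1 UMI between 11010 and 12409 genes were tested in a class, and with 20 UMIs between 6839 and 11389.

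Of 1350 recomputed list medians, 84 changed sign, and the largest reported value among them was 0.48 in size. None was of the interferon-γ, cholesterol, MHC class I, glycolysis or Ptgs1/2 knockout lists. Thinned, 37 of 220 medians left the median counting interval of their genes. Those of the main lists were prostaglandin synthesis in Myofibrobl (-0.42), interferon-γ in Infl_Mono (0.99), MHC class II and glycolysis in TAM_cycling (0.50 and 0.52), cholesterol in Ctsk_Macro (0.44) and the Ptgs1/2 knockout list in Ctsk_Macro and Myofibrobl (1.20 and 0.50). With 20 UMIs, prostaglandin synthesis in Myofibrobl was -0.014 and MHC class II in TAM_C1q 0.60. Without cells holding non-immune marker UMIs, prostaglandin synthesis in Infl_Mono was -0.44, interferon-γ in TAM_cycling 1.65, and MHC class II 1.22 in TAM_C1q and 0.72 in TAM_cycling. With cells above 2000 genes, interferon-γ in Infl_Mono was 0.096, from 0.68, with 45 and 49 cells left. There the log2 ratio of the share of cells was -0.015 in Infl_Mono (0.45 with all cells), 0.51 in Myofibrobl, -0.64 in TAM_Spp1 and 0.99 in TAM_cycling. No paired analysis was possible because each group had 1 library, and for the same reason none could be left out. Shallow sums limit Infl_Mono most, where 2405 genes could be tested.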

Other observations

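In the 7 small classes with values, Apoe was lower in COX2i in each, and the class II gene H2-Ab1 had log2 ratios between -0.32 and 0.39 in 5, with Mast and NK_cells above. Monocyte_1, with 44 cells in CTRL and 394 in COX2i, had 7310 and 1903 CPM of Apoe (log2 ratio -1.94, -2.03 to -1.85), while its Gbp2 level was already 3401 CPM in CTRL and 3757 in COX2i (0.14, 0.03 to 0.26) and H2-Ab1 stood at 6514 and 6456 (-0.01). TAM_H2Ab1, with 19 and 41 cells, had 25850 and 9108 CPM of Apoe (-1.505) and 4191 and 2316 of Gbp2 (-0.86). Macro had 29156 and 15098 CPM of Apoe (-0.95). In cDC1 H2-Ab1 stood at 15840 and 12680 CPM (-0.32).

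Retnla, a secreted protein of alternatively activated macrophages, was chosen after its values were seen. It had 1 UMI in TAM_cycling in CTRL and 623 in COX2i, a log2 ratio of 8.12 with an interval of 5.64 to 13.43, and 8 and 93 UMIs in TAM_Spp1 (4.14, 3.10 to 5.39). Hp, the haemoglobin carrier haptoglobin, fell in TAM_Spp1 from 152 to 35.6 CPM (-2.10) and stood at 456 and 432 in Infl_Mono (-0.08). Mmp13, a collagenase, rose in Myofibrobl from 1.76 to 46.7 CPM (4.73) and fell in Infl_Mono from 240 to 70.4 (-1.77), and Mmp12, an elastase, rose in Ctsk_Macro from 3.93 to 71.3 (4.18). These 3 were also chosen after their values were seen.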
